A study of Mus musculus with 10 samples.

Results

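The 10 genes described here are commonly used as readouts of Wnt and beta-catenin signalling, and were followed across 5 mouse embryonic stem cell (mESC) lines, every one of them grown with the GSK3 inhibitor CHIR99021. The genes were taken from a list of names and not by a cut on measured values, but earlier results of these data were known when it was chosen. The list holds *Apcdd1*, *Axin2*, *Nkd1*, *Lgr5*, *Tcf7*, *Lef1*, *Sp5*, *T*, *Cdx1* and *Cdx2*. All 10 were among the 20325 genes of the table, and 8 of them were among the 13201 genes that reached 1 CPM (the expected count scaled to the library total, per 1000000) in at least 2 libraries and were tested. *Cdx2* and *Lgr5* reached that level in 0 libraries and are described by their counts.

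The 5 lines fell into 2 sets with 2 polyA RNA-Seq libraries a line. *Daxx*-/- mESCs of strain 129/SvEv lack DAXX, a histone chaperone of the variant H3.3, and a second line carries a WT DAXX transgene on that background (Daxx-/-;WT, the DAXX-rescued line). H3.3 KO mESCs of strain 129 x C57BL/6J were measured as such, with a WT H3.3 transgene (H3.3 KO;WT, the WT H3.3 line) and with a transgene of H3.3 substituted at L126A and I130A (the L126A-I130A line, whose second substitution the labels spell L130A). Every line was kept without feeder cells in 2i + LIF medium, which held CHIR99021 at 3 µM and the MEK inhibitor PD0325901 at 1 µM. The transgenes were tagged, came from lentiviral vectors with an EF1 promoter and were selected with puromycin, so a rescued line also differs from its KO line by transduction and selection. No line with intact *Daxx* and H3.3 genes and no culture without CHIR99021 was analysed here, so the response to the inhibitor itself was not measured.

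Beta-catenin is marked for destruction by a complex of Axin, APC, casein kinase and GSK3. When a Wnt ligand binds its Frizzled and LRP receptors, or when GSK3 is blocked by CHIR99021, beta-catenin escapes the complex, enters the nucleus and binds TCF/LEF factors at their target genes. In mESCs this relieves repression by Tcf7l1 and helps to keep the cells naive, while in the embryo the same pathway drives the primitive streak and its gene *T*. Many targets feed back on the pathway, among them *Axin2*, *Nkd1* and *Apcdd1*.

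TCF/LEF factors recognise the letters CTTTGAT. The 250 bases before the transcription start were searched for exactly this motif on both strands (its reverse complement is ATCAAAG). Variants of the motif and sequence outside these windows were not searched, so a window without a match does not show that a gene lacks a site. RefSeq windows were at hand for 7 of the 10 genes (*Sp5*, *Lef1*, *Cdx2*, *Nkd1*, *Tcf7*, *Axin2* and *T*, 11 windows in all), and 1 of the 11 held a match. The match was in *Sp5*, from base -104 to base -98, and 3.21% of the 32851 windows in the table held 1. The *Sp5* window is shown because it carries the motif (capitals), and the *Axin2* window because *Axin2* is the most used readout of the pathway and these letters are not in it. Both are on the plus strand of GRCm38.p6 and read 5′ to 3′, *Sp5* at chr2:70474673-70474922 and *Axin2* at chr11:108920099-108920348.
Sp5: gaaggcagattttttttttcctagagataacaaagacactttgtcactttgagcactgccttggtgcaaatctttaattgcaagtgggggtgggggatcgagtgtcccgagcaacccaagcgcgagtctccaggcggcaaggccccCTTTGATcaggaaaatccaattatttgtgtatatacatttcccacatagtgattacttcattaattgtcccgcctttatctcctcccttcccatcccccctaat
Axin2: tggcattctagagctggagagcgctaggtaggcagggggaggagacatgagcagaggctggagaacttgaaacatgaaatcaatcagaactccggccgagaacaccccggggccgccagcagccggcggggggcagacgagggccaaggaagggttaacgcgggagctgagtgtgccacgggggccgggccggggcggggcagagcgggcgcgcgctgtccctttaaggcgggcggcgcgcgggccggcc

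Library totals lay between 15463625 and 21396585 expected counts, so 1 CPM stands for 15.5 to 21.4 counts. Replicates of a line differed by more than counting noise, with a chi-square per gene between 10.9 in the WT H3.3 line and 73.4 in *Daxx*-/-, and no library repeated another. *Daxx* was at 75.8 ± 2.03 CPM (SD, n = 2) in *Daxx*-/- and at 201 ± 9.28 CPM with the DAXX transgene. In the H3.3 lines, which are not labelled as *Daxx* knockouts, it was at 63.9 ± 0.0233 CPM in H3.3 KO. It was at 61.6 ± 0.117 CPM there with WT H3.3 and at 83.4 ± 18.9 CPM with L126A-I130A. The *Daxx*-/- level lay within that range, so it is no check of the *Daxx*-/- label. *H3f3a*, 1 of the 2 H3.3 genes, lay between 2.94 and 11.4 CPM in the H3.3 lines against 390 to 498 CPM in the Daxx lines. *H3f3b*, the other, was not low in the lines labelled H3.3 KO: it was at 637 ± 158 CPM without a transgene, 353 ± 24.7 CPM with the L126A-I130A transgene and 173 ± 40.8 CPM with the WT one, against 341 ± 67 CPM in *Daxx*-/- and 97.3 ± 17.3 CPM with DAXX. Which part of *H3f3b* was targeted is not given in the sources used here, so its level is no check of the label. The 10 embryonic stem cell markers summed to between 6560 and 10400 CPM in every library. Levels are in CPM, and the error of a level is the SD of the 2 libraries that a line has.

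By the GENCODE annotation of GRCm38 *Apcdd1* and *Cdx1* lie on chromosome 18 and *Axin2* and *Tcf7* on chromosome 11, and the other 6 on 6 further chromosomes. The 10 genes spanned from 1160 counts a library to 0. Per kilobase of exon, *Tcf7* was the highest at 17.4 ± 3.76 CPM per kb (SD over the 10 libraries), followed by *Cdx1* (8.97 ± 6.87), *Axin2* (6.42 ± 1.89) and *Apcdd1* (2.29 ± 1.62). *Sp5* (1.02 ± 0.854), *Nkd1* (0.536 ± 0.282), *Lef1* (0.356 ± 0.193) and *T* (0.276 ± 0.236) formed a low group, and *Lgr5* (0.0551 ± 0.0336) and *Cdx2* (0.0334 ± 0.0469) were at the limit of detection. Of these, *Cdx1* and *Apcdd1* varied most between lines among the 4 higher genes, by 17.4-fold and 8.6-fold from the lowest to the highest library, against 2.87-fold for *Axin2* and 2.11-fold for *Tcf7*.

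**Figure D1:**
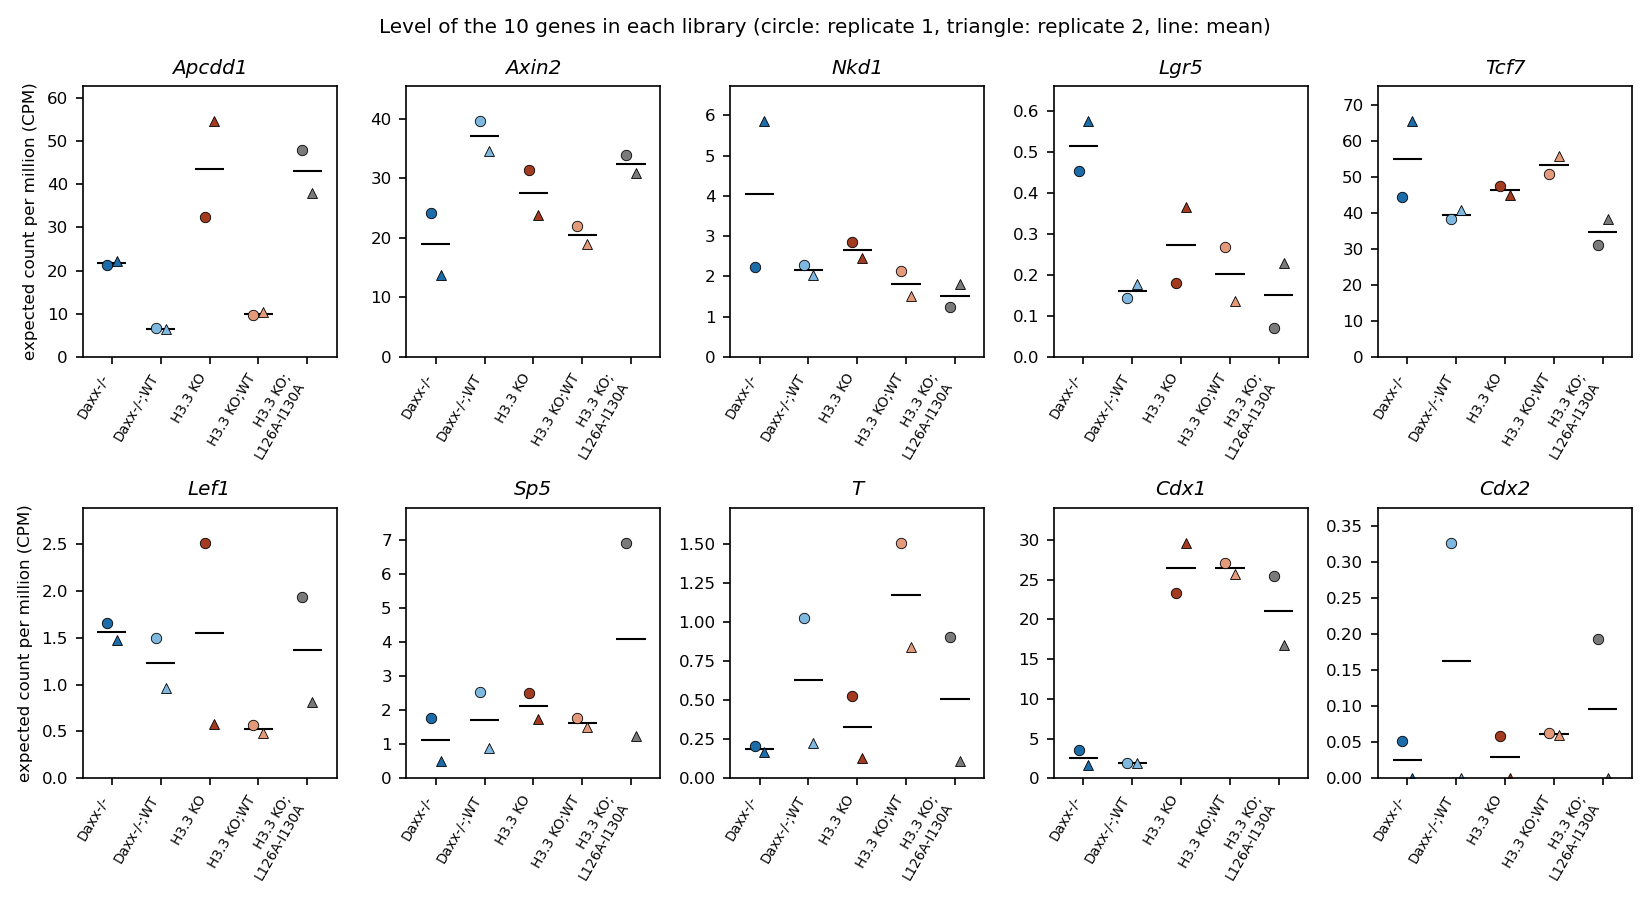
Level of each gene (vertical axis, CPM, starting at 0 and scaled per panel) in the 5 lines; circles are replicate 1, triangles replicate 2 and bars the mean of 2. Apcdd1 is low in both lines with a WT transgene, Cdx1 is at 1.7 to 3.53 CPM in the Daxx lines and at 16.7 to 29.6 CPM in the H3.3 lines, and the panels of Lgr5, T and Cdx2 cover very few counts.

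*Apcdd1*, which encodes a membrane-bound inhibitor that binds Wnt and LRP proteins, was lower in each line rescued with a WT protein than in its KO line, and in the L126A-I130A line it was at the level of H3.3 KO. In *Daxx*-/- its 2 libraries were at 21.3 and 22.2 CPM, and in the DAXX-rescued line at 6.59 and 6.34 CPM. In H3.3 KO they were at 32.4 and 54.6 CPM, in the WT H3.3 line at 9.68 and 10.3 CPM, and in the L126A-I130A line at 48.0 and 38.0 CPM. All 4 libraries with a WT transgene were below all 6 others, while the H3.3 KO and L126A-I130A libraries interleaved. In bulk RNA, fewer cells with a transcript and less transcript per cell cannot be told apart.

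Differentially expressed (DE) genes had to change at least 2-fold and to pass an adjusted p (Benjamini-Hochberg, over all genes tested) of 0.05 in edgeR's quasi-likelihood fit, which took in all 10 libraries. *Apcdd1* fell with DAXX by 1.74 on the log2 scale (SE 0.267, 3.35-fold lower, adjusted p = 0.0266). In the WT H3.3 line it fell by 2.09 (SE 0.266, 4.25-fold lower, adjusted p = 0.0254). With L126A-I130A H3.3 the log2 difference from H3.3 KO was 0.05 (SE 0.251, adjusted p = 0.948). The transgenes were also compared with each other, and *Apcdd1* was 4.39-fold higher in the L126A-I130A line than in the WT H3.3 line (log2 2.13, SE 0.266, adjusted p = 0.0211). The fall with DAXX and the fall with WT H3.3 differed by 0.34 (SE 0.368, adjusted p = 0.698), which does not show that they were equal. The change with DAXX and that with L126A-I130A differed by -1.79 (SE 0.365), which did not pass in edgeR (adjusted p = 0.223) and did in DESeq2. The comparisons of WT and L126A-I130A H3.3 with H3.3 KO share the H3.3 KO libraries, and all 3 H3.3 comparisons draw on 6 libraries.

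The direction and size of these *Apcdd1* changes held in every alternative, but their calls rested on few libraries. The DAXX change lay between -1.82 and -1.61 over 19 alternatives and stayed DE in 13. It lost the call when *Daxx*-/- replicate 2 (adjusted p = 0.0571), DAXX-rescued replicate 1 (0.237) or 2 (0.103), or WT H3.3 replicate 1 (0.0626) or 2 (0.0618) was left out, and when the comparison was fitted alone (0.144). The WT H3.3 change lay between -2.41 and -1.67 and stayed DE in 16 of 19, with the call lost without H3.3 KO replicate 2 (adjusted p = 0.121) or WT H3.3 replicate 1 (0.36) or 2 (0.326). The difference between the H3.3 transgenes lay between 1.89 and 2.34 and stayed DE in 16 of 19, with the call lost without WT H3.3 replicate 1 (adjusted p = 0.14) or 2 (0.249) or L126A-I130A replicate 1 (0.147). Each of these p-values is from edgeR with that library left out, except 0.144, which is from edgeR with the DAXX comparison fitted alone.

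Markers of other cell types were read beside the DAXX comparison, in which none of those tested was DE by edgeR. In it, 2 of 2 tested fibroblast markers (median log2 -1.81) and 2 of 5 primitive endoderm markers (median -1.45) had an unadjusted p under 0.05. This held for 1 of 4 trophoblast and 0 of 3 primitive streak markers, and for 21.8% of all genes (median -0.024). The 7 fibroblast markers summed to 25.9 and 41.8 CPM in *Daxx*-/- against 11.7 and 17.5 CPM in the DAXX-rescued line, nearly all of it *Thy1*, which mESCs can also express, and *Col1a1*. Of the 7, 5 (*Col1a2*, *Col3a1*, *Postn*, *Dcn* and *Lum*) were under 1 CPM in every library. The 7 primitive endoderm markers summed to 7.58 and 23.3 CPM in *Daxx*-/- against 5.37 and 8.43 CPM with DAXX, overlapping between the lines and with *Sox7* and *Foxa2* under 1 CPM in every library. In the H3.3 set the fibroblast sums lay between 8.78 and 11.1 CPM in H3.3 KO and between 8.55 and 11.6 CPM in the WT H3.3 line. The primitive endoderm sums there were 7.72 and 14.2 CPM in H3.3 KO and 9.5 and 9.63 CPM in the WT H3.3 line. In the L126A-I130A line the fibroblast sums were 4.2 and 10.5 CPM and the primitive endoderm sums 7.31 and 10.2 CPM. The part of other cells in the *Apcdd1* differences was not tested.

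*Axin2*, a scaffold of the destruction complex and a negative feedback gene, was well expressed in every line and was not DE in any of the 5 comparisons. Its levels were 24.2 and 13.8 CPM in *Daxx*-/-, 39.6 and 34.6 CPM in the DAXX-rescued line, 31.5 and 23.8 CPM in H3.3 KO, 22.1 and 18.9 CPM in the WT H3.3 line and 34.0 and 31.0 CPM in the L126A-I130A line. Both DAXX-rescued libraries were above both *Daxx*-/- libraries, whose 2 values were far apart. The difference was 1.94-fold (log2 0.95, SE 0.298, edgeR adjusted p = 0.121). It was 1.49 on the log2 scale, and DE, only when *Daxx*-/- replicate 1 was left out (edgeR adjusted p = 0.0208), and 0.56 without replicate 2 of that line. In the H3.3 set *Axin2* differed by -0.40 with WT H3.3 (SE 0.298, edgeR adjusted p = 0.623) and by 0.29 with L126A-I130A (SE 0.296, adjusted p = 0.668). The differences with DAXX and with WT H3.3 were 1.35 apart (SE 0.421), which did not pass (edgeR adjusted p = 0.238). No neighbours in the order of the 5 lines were separated by more than their summed SD.

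*Nkd1*, which encodes a Dishevelled-binding inhibitor of the pathway, was low throughout. It was at 2.23 and 5.85 CPM in *Daxx*-/-, the second being its highest library, and between 1.23 and 2.86 CPM in the other 8 libraries. Its log2 difference was -0.86 with DAXX (SE 0.479, edgeR adjusted p = 0.323), -0.51 with WT H3.3 (SE 0.49, adjusted p = 0.711) and -0.75 with L126A-I130A (SE 0.495, adjusted p = 0.49). *Lgr5*, a receptor for R-spondins that marks Wnt-dependent stem cells in adult tissues, had 1.1 to 10.2 expected counts a library (0.0711 to 0.575 CPM). Both *Daxx*-/- libraries were its highest (0.514 ± 0.0857 CPM), and no test was made at this depth.

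*Tcf7* and *Lef1* encode 2 of the TCF/LEF factors that carry beta-catenin on DNA, and both are themselves targets of the pathway. *Tcf7* was at 44.4 and 65.5 CPM in *Daxx*-/-, 38.3 and 40.8 CPM with DAXX, 47.6 and 45.0 CPM in H3.3 KO, 50.9 and 56.0 CPM with WT H3.3 and 31.0 and 38.4 CPM with L126A-I130A. Both libraries with L126A-I130A were below both with WT H3.3, by 0.60 on the log2 scale (SE 0.169), which did not pass (edgeR adjusted p = 0.171). Its difference with DAXX was -0.46 (SE 0.168, edgeR adjusted p = 0.165). Without *Daxx*-/- replicate 1 it was -0.66 (edgeR adjusted p = 0.0329, under 2-fold), and without replicate 2 it was -0.23. With WT H3.3 it was 0.24 (SE 0.168, edgeR adjusted p = 0.598). Over the 10 libraries its log2 level and that of *Axin2* had a Pearson r of -0.872, a description over libraries of 5 lines that share their line and set.

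*Lef1* was measured from 8 to 43 counts a library. It was at 1.66 and 1.47 CPM in *Daxx*-/-, 1.5 and 0.96 CPM with DAXX, 2.51 and 0.58 CPM in H3.3 KO, 0.57 and 0.48 CPM with WT H3.3 and 1.94 and 0.81 CPM with L126A-I130A. The 2 WT H3.3 libraries were its lowest, and the replicates of H3.3 KO and of L126A-I130A were far apart. Its log2 difference was -1.53 with WT H3.3 (SE 0.777, edgeR adjusted p = 0.447) and 1.40 between L126A-I130A and WT H3.3 (SE 0.782, adjusted p = 0.538). The first was -0.11 without H3.3 KO replicate 1, and the second 0.56 without L126A-I130A replicate 1.

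*Sp5*, *T*, *Cdx1* and *Cdx2* encode transcription factors that the pathway turns on in the embryo. *Sp5*, whose promoter window holds the motif shown above, was at 1.76 and 0.51 CPM in *Daxx*-/-, 2.52 and 0.91 CPM with DAXX, 2.51 and 1.74 CPM in H3.3 KO, 1.76 and 1.5 CPM with WT H3.3 and 6.92 and 1.25 CPM with L126A-I130A. The value of 6.92 CPM was its highest, and the other library of that line was below both of H3.3 KO. The log2 difference from H3.3 KO was 1.02 (SE 0.869, edgeR adjusted p = 0.604). *T*, the Brachyury factor of the primitive streak, had 4 and 3 counts in *Daxx*-/-, 22 and 4 with DAXX, 9 and 2 in H3.3 KO, 24 and 14 with WT H3.3 and 14 and 2 with L126A-I130A. It was tested only because 2 libraries reached 1 CPM, replicate 1 of the DAXX-rescued line (1.03 CPM) and replicate 1 of the WT H3.3 line (1.51 CPM), and it was not DE in any of the 5 comparisons (lowest edgeR adjusted p = 0.398). *Cdx2*, a trophoblast and posterior factor, had 0 counts in 4 libraries and 1 to 7 in the others, and 3 counts correspond to 0.14 to 0.194 CPM.

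*Cdx1*, a homeobox factor of the posterior axis and the gut, was the member that differed most between the 2 sets of lines. It was at 3.53 and 1.70 CPM in *Daxx*-/- and at 1.92 and 1.98 CPM in the DAXX-rescued line. It was at 23.3 and 29.6 CPM in H3.3 KO, 27.1 and 25.7 CPM with WT H3.3 and 25.4 and 16.7 CPM with L126A-I130A. All 6 H3.3 libraries were thus above all 4 Daxx libraries, 10.4-fold on average (log2 3.37, SE 0.271, edgeR adjusted p = 7.62e-05), and the call held in 18 of 18 alternatives (log2 2.93 to 3.72). Strain, parental line and origin go with the set, so none of them can be told apart from genotype. Within the sets *Cdx1* was not DE: the log2 difference was -0.44 with DAXX (SE 0.402, edgeR adjusted p = 0.543), 0.03 with WT H3.3 (SE 0.349, adjusted p = 0.981) and -0.26 with L126A-I130A (SE 0.35, adjusted p = 0.75).

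Counted over the 8 tested genes, 1 was lower with DAXX (*Apcdd1*) and 0 were higher, where 1.08% of all genes tested were DE. With WT H3.3 1 was lower (*Apcdd1*) and 0 higher, where 0.25% of all genes were DE. With L126A-I130A 0 of 8 were DE, where 0.788% of all genes were DE, and 0 of 8 had an unadjusted p under 0.05 (16.9% of all genes), 0 were called by DESeq2 (3.36% of all genes) and 0 by limma. L126A-I130A against WT H3.3 gave 1 higher (*Apcdd1*) and 0 lower, where 0.515% of all genes were DE. Between the sets 2 of 8 were higher in the H3.3 lines (*Cdx1* and *Apcdd1*, the latter by 1.10 on the log2 scale with overlapping libraries, edgeR adjusted p = 0.00135) and 0 lower, where 12.5% of all genes were DE. *Apcdd1* fell under 2-fold between the sets without H3.3 KO replicate 2 (log2 0.97). The contrast between the sets averages 3 H3.3 lines, with *Apcdd1* at 43.5 CPM in H3.3 KO, 43 CPM with L126A-I130A and 9.99 CPM with WT H3.3. Against them stand 2 Daxx lines, at 21.8 CPM in *Daxx*-/- and 6.47 CPM with DAXX. The unequal make-up of the sets therefore enters this *Apcdd1* difference, and the KO lines were not tested against each other. By edgeR, an unadjusted p under 0.05 was found for 3 of 8 with DAXX (21.8% of all genes) and 1 with WT H3.3 (13.3%). It was found for 3 between the H3.3 transgenes (12.3%) and 2 between the sets (49.5%). DESeq2 called 1, 1, 1 and 2 in that order (4.02%, 1.58%, 2.45% and 12.8% of all genes).

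The libraries of the 2 lines did not overlap for 4 of 8 members with DAXX, where 47.6% of all genes did not overlap. For WT H3.3 this was 6 of 8, where the share of all genes was 55.7%, and for L126A-I130A 2 of 8, where it was 49%. For L126A-I130A against WT H3.3 it was 5 of 8, where it was 45.6%, and between the sets 1 of 8, where it was 23.1%. *T* is counted among the 4 with DAXX and the 6 with WT H3.3. It passed the filter only through replicate 1 of those rescued lines, so it was partly chosen for standing high there. Its log2 differences (1.74 and 1.83) also enter the medians that follow. The median log2 difference of the 8 was -0.39 in the DAXX comparison (-0.02 for all genes tested) and -0.37 in that of WT H3.3 (0.02 for all genes). It was -0.04 in that of L126A-I130A (0.03 for all genes) and 0.22 between the H3.3 transgenes (0.00255 for all genes).

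Differences between changes were tested as contrasts of the same fit. For DAXX against WT H3.3, 0 of 8 members passed, where 0.0455% of all genes did. Of the 8, 2 (*Axin2* and *Tcf7*) had an unadjusted p under 0.05, where 13.9% of all genes did, and DESeq2 (1.98% of all genes) and limma called 0. For DAXX against L126A-I130A, 0 of 8 passed in edgeR, where 0.0227% of all genes did, 1 (*Apcdd1*) had an unadjusted p under 0.05 (11.2% of all genes), DESeq2 called that 1 (1.24% of all genes) and limma called 0.

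**Figure D2:**
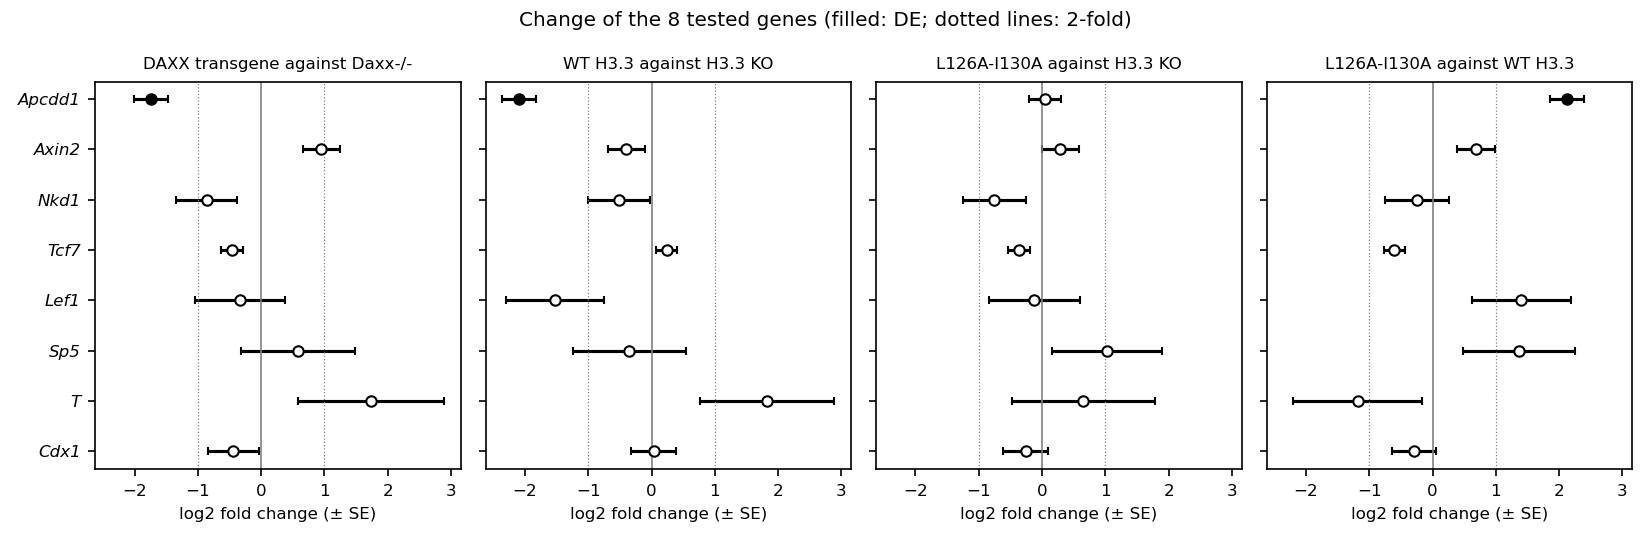
Log2 fold change of the 8 tested genes (horizontal axis, bars are ± 1 SE of edgeR's fit) in the 4 comparisons within the sets; filled points are DE and dotted lines mark 2-fold. Apcdd1 is the filled point in 3 panels, at -1.74, -2.09 and 2.13, and the bars of Lef1, Sp5 and T are the widest.

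The number of a replicate went with the level of several members. *Axin2*, *Sp5*, *Lef1* and *T* were higher in replicate 1 than in replicate 2 in all 5 lines, 4 of the 8 tested genes, where 7.7% of all genes tested were higher in replicate 1 in all 5 lines. None of the 8 was lower in replicate 1 in all 5 lines, where 16.9% of all genes were. *Tcf7* was higher in replicate 1 in 1 of the 5 lines, *Apcdd1* in 2, and *Nkd1* and *Cdx1* in 3 each. *T* had passed the filter through 2 replicate 1 libraries, and *Lef1* reached 1 CPM in 5 libraries, 4 of them replicate 1, so both were partly chosen for this pattern. The labels do not say what a replicate number stands for.

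With the replicate number in the fit, replicate 1 was higher than replicate 2 by 0.43 on the log2 scale for *Axin2* (SE 0.12, edgeR adjusted p = 0.0856). The difference was 1.37 for *Sp5* (SE 0.374, edgeR adjusted p = 0.0846), 1.65 for *T* (SE 0.472, adjusted p = 0.0883) and 0.97 for *Lef1* (SE 0.351, adjusted p = 0.123). By this test 0 of 8 members were DE, as were 0% of all genes tested, although 4 of the 8 and 3794 of 13201 genes had an unadjusted p under 0.05. DESeq2 called 1 of the 8 (*Sp5*), where it called 1.48% of all genes, and limma on log2(CPM + 1) called 0, where it called 1 of 13201 genes.

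**Figure D3:**
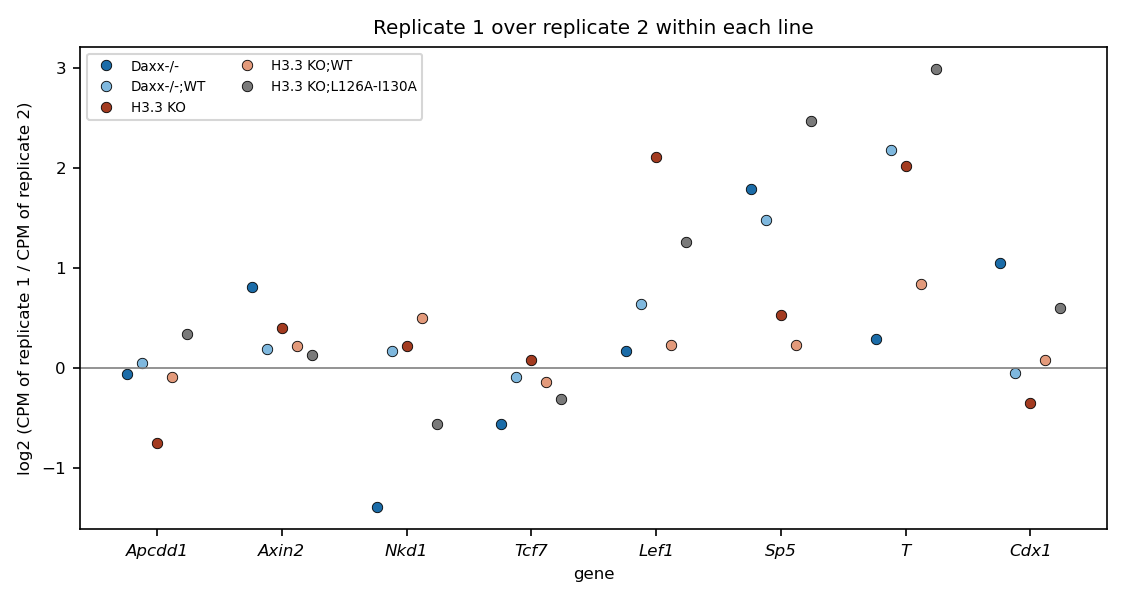
Log2 of the CPM in replicate 1 over that in replicate 2 (vertical axis), 1 point a line, for the 8 tested genes (horizontal axis). All 5 points of Axin2, Lef1, Sp5 and T are above 0, and those of Apcdd1, Nkd1, Tcf7 and Cdx1 lie on both sides of it.

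The other genes of the pathway were taken from 7 lists of 114 genes in all, 82 of which were tested. With DAXX, 1 of the 82 was higher and 1 lower, where 1.08% of all genes tested were DE. Of the 82, 22 had an unadjusted p under 0.05 and DESeq2 called 5, against 21.8% and 4.02% of all genes. *Wls*, the carrier that brings Wnt ligands to the cell surface, rose from 1.04 and 0.679 CPM in *Daxx*-/- to 5.09 and 5.43 CPM (log2 2.59, SE 0.393, edgeR adjusted p = 0.0266). *Sfrp2*, a secreted Frizzled-related protein that binds Wnt, fell from 10.6 and 17.3 CPM to 3.61 and 3.62 CPM (log2 -1.93, SE 0.282, edgeR adjusted p = 0.0266). With WT H3.3, 0 of the 82 were DE by edgeR (13 had an unadjusted p under 0.05, DESeq2 called 1 and limma 0, against 13.3% and 1.58% of all genes for the first 2), and *Sfrp2* was at 12.3 and 14.3 CPM against 28.3 and 26.1 CPM in H3.3 KO (2-fold lower, SE 0.267 on the log2 scale, adjusted p = 0.183). With L126A-I130A, 1 was higher and 0 lower (15 had an unadjusted p under 0.05 and DESeq2 called 3, against 16.9% and 3.36% of all genes). It was *Fzd7*, a Wnt receptor and itself a listed target, which rose from 18.1 and 18.7 CPM in H3.3 KO to 59.2 and 36.1 CPM (log2 1.44, SE 0.251, edgeR adjusted p = 0.0392). Between the H3.3 transgenes 0 of the 82 were DE by edgeR (11 had an unadjusted p under 0.05, DESeq2 called 2 and limma 0, against 12.3% and 2.45% of all genes for the first 2), with *Fzd7* at a log2 difference of 1.18 (SE 0.249, adjusted p = 0.0925).

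Of the 9 tested ligand and secretion genes, *Wls* was the DE gene, and 15 of the 25 listed ligand, R-spondin and secretion genes were under 1 CPM in every library. Of 15 tested receptors, 1 (*Fzd7*) was DE within the sets, and of 11 antagonists, 1 (*Sfrp2*). None of the 16 genes of the destruction complex and its transducers, of the 13 TCF factors and cofactors or of the 8 naive genes that Tcf7l1 represses was DE within the sets by edgeR. Of these, between 1 and 3 of the 16, 0 and 4 of the 13 and 1 and 2 of the 8 had an unadjusted p under 0.05 in a comparison, where between 12.3% and 21.8% of all genes did. The list of other targets, which includes *Fzd7*, had 13 tested genes. Between the H3.3 transgenes 5 of them had such a p (median log2 0.33, 12.3% of all genes). Against H3.3 KO, L126A-I130A gave 5 (median 0.41, 16.9% of all genes) and WT H3.3 gave 3 (median -0.06, 13.3%). The DAXX comparison gave 3 (median -0.13, 21.8% of all genes). Whether this list shifted as a whole was not tested.

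The core of the pathway was expressed in every library. *Ctnnb1*, which encodes beta-catenin, lay between 994 and 1220 CPM in the Daxx lines and between 760 and 883 CPM in the H3.3 lines (log2 -0.50, SE 0.0767, edgeR adjusted p = 0.00124, under 2-fold). *Gsk3a* and *Gsk3b*, the targets of CHIR99021, lay between 88.1 and 124 CPM and between 78.0 and 104 CPM. *Axin1*, the constitutive counterpart of *Axin2*, was between 70.7 and 96.9 CPM. *Tcf7l1*, the repressor that beta-catenin relieves, was between 34.3 and 91.8 CPM, and *Tcf7l2* between 4.47 and 14.4 CPM. None of the 6 was DE in a comparison within the sets, the lowest adjusted p by edgeR being 0.293, for *Ctnnb1* with DAXX.

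Between the sets, 3 of the 82 were higher in the H3.3 lines and 7 lower, or 12.2%, where 12.5% of all genes tested were DE. The higher were *Sfrp2*, *Dact1* and *Klf4*. *Dact1*, an intracellular modulator of Dishevelled, was at 20.7 CPM on average in the H3.3 lines and 2.91 CPM in the Daxx lines (log2 2.75, SE 0.169, edgeR adjusted p = 2.38e-05). The lower were *Wnt11*, *Rspo1*, *Fzd2*, *Fzd7*, *Nkd2*, *Ascl2* and *Ccnd1*. *Ccnd1*, the cyclin D1 gene and a listed target, was at 37.5 CPM in the H3.3 lines and 155 CPM in the Daxx lines (log2 -2.19, SE 0.24, edgeR adjusted p = 0.00026).

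**Figure D4:**
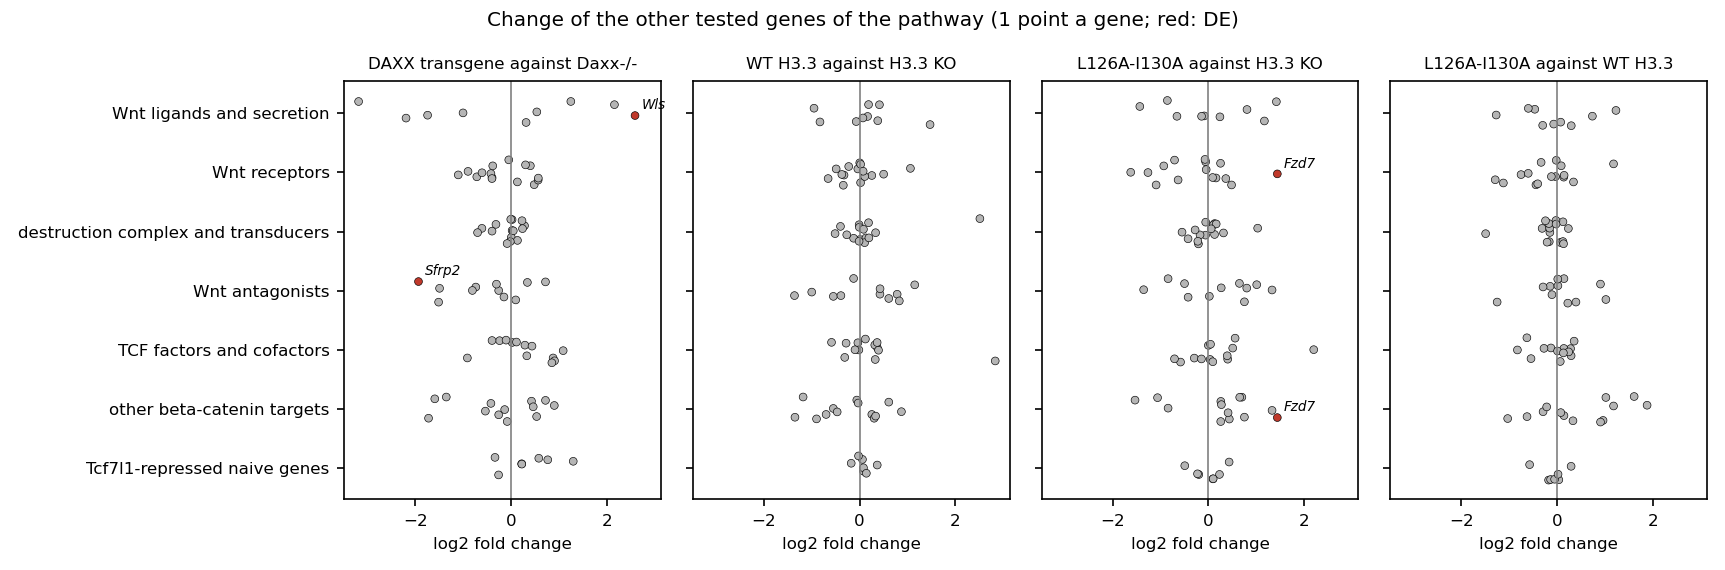
Log2 fold change (horizontal axis) of the other tested pathway genes in 7 lists (vertical axis, points spread within a list for legibility) for the 4 comparisons within the sets; red points are DE. Wls at 2.59, Sfrp2 at -1.93 and Fzd7 at 1.44, which is in 2 lists, are the red points.

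Markers of the primitive streak and trophoblast were read beside *T*, *Cdx1* and *Cdx2*. The 11 streak and mesoderm markers summed to between 57.8 and 101 CPM in every library, and 7 of them (*Mixl1*, *Mesp1*, *Fgf8*, *Tbx6*, *Msgn1*, *Wnt3* and *Lhx1*) were under 1 CPM in all 10. The 8 trophoblast markers summed to between 54.2 and 121 CPM, with *Elf5*, *Gata3* and *Plac1* under 1 CPM in all 10. Most of those sums came from genes that mESCs also express, such as *Nodal* and *Tfap2c* (listed as *Tcfap2c*). Between the sets, *Gsc* (a streak marker) and *Klf4* (an embryonic stem cell marker) were higher in the H3.3 lines. *Ascl2* (trophoblast), *Pdgfra* (primitive endoderm) and *Thy1* (fibroblast) were lower there. By edgeR, none of the tested marker genes was DE within the sets, and in any comparison there at most 1 of 3 streak, 2 of 4 trophoblast, 2 of 5 primitive endoderm and 2 of 2 fibroblast markers had an unadjusted p under 0.05, where between 12.3% and 21.8% of all genes did.

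The genes whose log2 levels followed a member most closely over the 10 libraries are given as a description, since the libraries share their lines. For *Apcdd1* they were *Eps8* (Pearson r = 0.978), *Rtn1* (0.965) and *Amph* (0.963). For *Axin2* they were *Trim2* (0.962), *Ubox5* (0.956) and *Trmt12* (0.943). For *Cdx1*, whose level splits the libraries into 2 sets, they were *Tmed2* (0.993), *Thyn1* (0.991) and *Exoc5* (0.989).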

How the data were processed

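PolyA RNA was measured in 5 mESC lines with 2 libraries each, grouped by their labels. The authors aligned reads with Bowtie and estimated expression with RSEM, and mm9 is the build in the submitters' processing notes. Versions and annotation are not given in the sources used here. The deposited values are RSEM expected counts per gene, not scaled for depth or length, although they are named TPM. They were rounded and fitted with edgeR 4.0.16 (R 4.3.3) by quasi-likelihood, with median-of-ratios factors, line as the only covariate and Benjamini-Hochberg adjustment over the 13201 genes that reached 1 CPM in 2 or more libraries. The standard error is the log2 fold change divided by the square root of F. The study calls the 2 libraries of a line biological replicates.

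Exon lengths came from GENCODE M21 and promoter windows from RefSeq GRCm38.p6, read with Python 3.11.15. *Axin2* and *Lef1* share exon bases with an opposite-strand gene there (*Gm11670* and *Gm43352*), and the library kit does not mark strand. Floors of 3 counts cover counting error only.

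Named genes were the members, DE genes of the lists, 6 core genes, the label checks and the 3 genes closest by Pearson r of log2(CPM + 1). Cell type markers were read as sums. The members and lists were chosen with earlier results of these data known. Alternatives were TMM factors, library size alone, other filters, other thresholds, DESeq2 1.42.0, limma 3.58.1 on log2(CPM + 1) and log2(CPM + 0.1), each comparison alone, a replicate block and each library left out. Differences between changes and the replicate contrast were added after the data were seen. The fits were also run on simulated counts. These had the same dispersion in every line and no replicate effect, so they are no check of calls from lines of unequal spread.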

Additional observations from a re-analysis of the deposited data

Results flagged for a closer look

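*Apcdd1* changed differently with the WT and the L126A-I130A H3.3 transgene over the same H3.3 KO line, and the difference itself was tested. It was 2.13 on the log2 scale (SE 0.266, edgeR adjusted p = 0.0211), with both L126A-I130A libraries (48.0 and 38.0 CPM) above both WT H3.3 libraries (9.68 and 10.3 CPM). With 2 libraries a line, no sample could be tested for standing apart from its own group.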

How the results depend on the processing

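No scaling moved the median of all genes by over 0.1. Fitted alone, the DAXX comparison called 0 members, where it called 1 of all genes tested (the sets already use all libraries). The WT H3.3 comparison alone called 1 member and 330 of all genes, against 33 genes in the shared fit. For L126A-I130A it was 0 members and 29 genes (104 in the shared fit), and between the H3.3 transgenes 1 member and 18 genes (68). The share of all genes called thus depends on which lines share the estimate of the spread. At 2-fold with no test, the members past it were 2 in the DAXX comparison (11.7% of all genes), 3 and 1 in those of WT and L126A-I130A H3.3 (7.45% and 10.4%), 4 between the H3.3 transgenes (8.99%), 2 and 2 for the differences of the DAXX change from those with WT and L126A-I130A H3.3 (15.2% and 12.9%), and 2 for the replicate number (3.58%). DESeq2 called 1 for the DAXX and L126A-I130A difference and 1 for the replicate number. With each library left out in turn, which leaves 1 library in its line, the number of all genes called moved widely. Counts of members called are therefore not given for these fits. The log2 difference of *Apcdd1* was then between -1.82 and -1.68 with DAXX and between -2.41 and -1.67 with WT H3.3. It was between 1.89 and 2.34 between the H3.3 transgenes, and between 0.97 and 1.22 between the sets. The *Cdx1* difference between the H3.3 transgenes, -0.29 and not called, was between -0.692 and 0.0225 with a library left out, the latter without L126A-I130A replicate 2. *T*, which passed the filter only through replicate 1 libraries of the rescued lines, is among the members past 2-fold with DAXX and with WT H3.3. It is also among those between the H3.3 transgenes, for the DAXX and L126A-I130A difference and for the replicate number. *T* was not tested without replicate 1 of the DAXX-rescued or WT H3.3 line, nor at a mean of at least 5 CPM.

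Same-numbered libraries were not shown to be paired: replicate differences correlated between lines from -0.0486 to 0.565, over 0.1 in 7 of 10 pairs, a hint from the data. As deviations from the mean of their line, 10 of 10 libraries correlated best with their own number. The 2 libraries of a line mirror each other around that mean, so this restates the same differences and adds no further evidence. With a replicate block the DE genes rose to 621 (from 143) in the DAXX comparison, 105 (from 33) with WT H3.3, 461 (from 104) with L126A-I130A, 234 (from 68) between the H3.3 transgenes and 1812 (from 1649) between the sets, and the count of members called was 1, 1, 0, 1 and 2, as without it. For the differences of the DAXX change from those with WT and L126A-I130A H3.3 the DE genes rose to 144 (from 6) and 7 (from 3), with 0 members in each. *Axin2* with DAXX had a log2 difference of 0.99 and an edgeR adjusted p of 0.0189 under the block, under 2-fold.

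Low counts limit *Cdx2*, *Lgr5*, *T*, *Lef1* (8 to 43 a library) and *Sp5* (9 to 107).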
